A study of Mus musculus with 12 samples.

Results

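The effect of losing Otub1 in unstimulated CD8 T cells was read from 6 of the 12 RNA-seq libraries of a mouse study. The 3 libraries whose source label reads untreated knockout were compared with the 3 that read untreated wild type. Untreated is called fresh here and was taken to mean not cultured. Wild type mice carried the OT-I transgene, a T cell receptor for an ovalbumin peptide, and knockout mice carried OT-I with Otub1 deleted by CD4-Cre. CD4-Cre acts in developing T cells that express CD4, so the deletion is not limited to the CD8 lineage, and most T cells of an OT-I mouse share 1 receptor. All mice were on the C57BL/6 background, 6 to 8 weeks old. The other 6 libraries came from cells of both genotypes kept for 24 h with anti-CD3 and anti-CD28 at 1 µg/ml each. They were used to estimate the spread and to show what the genes changed in fresh cells did after stimulation. The design text names naive splenic CD8 T cells, while a cell type tag names splenic DCs and the genotype tag of the knockout reads OTUB1-DKO. Nothing in the labels ties replicates to different animals, and the p-values cover only the variation among these libraries, part of which may be technical.

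OTUB1 is a deubiquitinase of the ovarian tumour (OTU) family that removes K48-linked ubiquitin chains, the chains that mark proteins for the proteasome. It also binds ubiquitin-loaded conjugating enzymes such as UBC13 and blocks chain synthesis without cutting any chain. A fresh naive CD8 T cell is quiescent and is kept alive by weak receptor signals and by the cytokines IL-7 and IL-15. In T cells OTUB1 has been linked to IL-15 receptor signalling through the kinase AKT.

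Fresh wild type libraries held 15064488 to 20532761 gene counts and fresh knockout libraries 19013482 to 21953896. T cell markers were high in all 6 libraries, with Cd8a at 1500, 1500 and 1560 CPM, the share of a gene in its library scaled to 1000000 counts, in wild type and 1530, 1560 and 1560 in knockout. Markers of dendritic cells were also present, and their summed level was 1949 to 2278 CPM in wild type and 1582 to 2259 in knockout. B cell markers summed to 178 to 209 CPM against 188 to 260, and monocyte and macrophage markers to 277 to 397 against 291 to 424, mostly Ly6c2 (160 to 300 against 195 to 309), which CD8 T cells also express. Estimates were above 0 for 4 of 17 tested dendritic cell markers (median log2 fold change −0.206) and 3 of 18 tested monocyte and macrophage markers (median −0.253). Wild type library 3 and knockout library 2 held 5958 and 9563 Y-linked counts and the other 4 at most 10, so each group holds more than 1 animal. In bulk RNA, fewer cells of a type and less RNA per cell cannot be told apart.

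Otub1 itself lies on chromosome 19 at 7198206 to 7206284 (mm10). Wild type libraries held 72.6, 70.8 and 45.1 CPM of it, and knockout libraries 25.4, 28.8 and 28.6. The lowest wild type library was wild type library 3, and the groups did not overlap. The fitted change in fresh cells was −1.19 on the log2 scale (SE 0.14, edgeR adjusted p = 0.000559), which left 43.9%. In stimulated cells the fall was from 93.98 ± 7.48 to 14.8 ± 1.26 CPM (mean ± SD, n = 3 each), and the difference between both falls passed the test (edgeR interaction adjusted p = 0.00329). The exons removed by the deletion are not given in the labels, and reads outside them would still be counted. The fresh libraries also held markers of other cell types. Where the remaining Otub1 reads came from was not tested.

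Few other genes changed in fresh cells, and most of those that did rose. Of 12759 genes tested, 125 rose (0.98%) and 28 fell (0.219%) at an edgeR adjusted p under 0.05, in a model fitted to all 12 libraries. The changes were small, with medians of 0.60 (genes that rose) and −0.45 (genes that fell) on the log2 scale, and 21 and 3 of them reached 2-fold. All 153 called genes (1.2% of those tested) had fresh groups that did not overlap, which was also true of 1347 tested genes upward (10.6%) and 1202 downward (9.42%). Tmem59l had the highest fold change, but on few reads (0.243, 0.0969 and 0 CPM against 0.987, 1.13 and 0.959). The plot of fold change against expression shows the called genes spread over a wide range of levels.

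**Figure D1:**
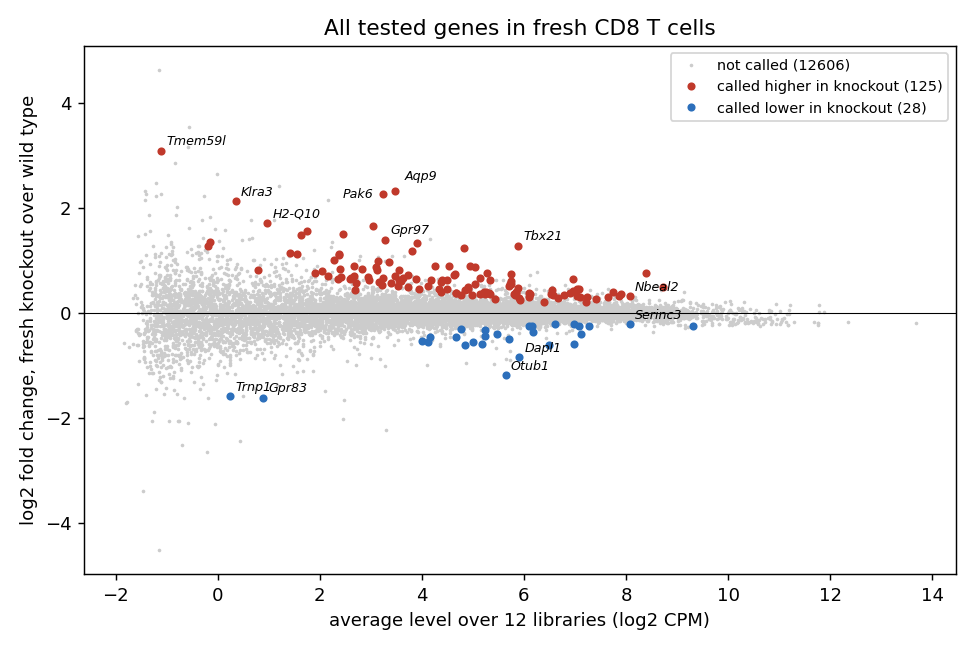
Log2 fold change of fresh knockout over fresh wild type (vertical axis) against average expression in log2 CPM (horizontal axis), 1 point per tested gene, with genes that rose and genes that fell at an edgeR adjusted p under 0.05 in colour. Most coloured points lie above 0 and within 1 unit of it, and Tmem59l, Aqp9, Pak6 and Klra3 stand highest.

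These counts depended on single libraries. Without wild type library 2, 21 genes rose and 8 fell. Without wild type library 3 the counts were 65 and 9, and without wild type library 1 they were 170 and 22. Leaving out a knockout library gave 85 and 8 (library 1), 86 and 76 (library 2) or 74 and 11 (library 3). The genes that stayed past the threshold in each of these 6 fits numbered 18 among those that rose and 6 among those that fell, and they are described first. Without both fresh libraries with Y-linked reads (and the stimulated one that has them), 53 rose and 37 fell. DESeq2 called 223 genes higher and 103 lower, a more even split, and shared 119 and 28 of the edgeR calls. Limma-voom shared 105 and 26.

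Aqp9, Pak6 and G0s2 were among the genes with a rise of over 2-fold that held in all 6 of these fits. Aqp9 encodes a channel for water and glycerol. It stood at 2.61, 2.33 and 3.53 CPM in wild type and at 10.6, 18.6 and 12.4 in knockout, a 4.99-fold rise (log2 2.32, SE 0.22, edgeR adjusted p = 0.000131). Knockout library 2 was the highest, yet the lowest knockout library was far above every wild type one. Pak6, a p21-activated kinase that acts downstream of small GTPases such as CDC42, was at 1.4, 0.727 and 0.799 CPM in wild type and 4.57, 5.02 and 4.27 in knockout (log2 2.26, SE 0.20, edgeR adjusted p = 6.09e-05). G0s2, an inhibitor of the triglyceride lipase ATGL, was at 2.67, 3 and 3.2 CPM in wild type and at 8.41, 7.24 and 9.11 in knockout (log2 1.48, SE 0.19, edgeR adjusted p = 0.00139). All 3 are low-level transcripts whose groups are separated by a wide gap.

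Receptors and adhesion molecules made up much of the remaining stable set. Gpr97, an adhesion G protein-coupled receptor, was at 8.2, 10.4 and 8.06 CPM in wild type and 22.4, 24.3 and 24 in knockout (log2 1.40, SE 0.12, edgeR adjusted p = 6.09e-05). Its wild type values were tight, and the lowest knockout value was well above them. Nrp2, a co-receptor for semaphorins and VEGF, was at 7.05, 7.56 and 6.66 CPM in wild type and 12.7, 13.7 and 13.2 in knockout (log2 0.89, SE 0.10, edgeR adjusted p = 0.000559). Icosl, the ligand of the costimulatory receptor ICOS, was at 28.3, 25.1 and 26.6 CPM against 39.6, 40.2 and 43.6 (log2 0.63, SE 0.08, edgeR adjusted p = 0.00177). Nlgn2, an adhesion molecule best known from inhibitory synapses, was at 5.16, 6.44 and 6.92 CPM against 11.2, 11 and 12.1 (log2 0.89, SE 0.11). The groups of these 3 genes did not overlap. Apobr, a receptor for apolipoprotein B48, rose less in proportion, from 28, 27.4 and 29.8 CPM to 41.4, 42.2 and 43.6 (log2 0.58, SE 0.08). Klra3, a Ly49 family receptor, was at 0.364, 0.727 and 0.732 CPM against 2.55, 2.58 and 2.97, but Ly49 genes are near-identical copies and the reads may be shared among them.

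Further stable rises concerned transcription and intracellular membranes. Hopx, a homeodomain-only protein without DNA binding of its own, was at 24.7, 24.2 and 27.4 CPM in wild type and 38.7, 46.7 and 42 in knockout (log2 0.74, SE 0.09, edgeR adjusted p = 0.000559). Tbx21, which encodes the T-box factor T-bet, was at 12.5, 11.7 and 14 CPM against 25.6, 38.7 and 27.7. Ctla2a, a cysteine protease inhibitor related to the propeptide of cathepsins, was at 12.7, 11.8 and 12.9 CPM against 25.4, 35 and 24.5, with reads that the near-identical Ctla2b may share. In both Tbx21 and Ctla2a knockout library 2 was the highest. Trip10, a membrane-bending adaptor that binds CDC42, rose from 4.98, 5.04 and 4.13 CPM to 9.04, 8.51 and 7.57 (log2 0.82, SE 0.11), and Edaradd, the adaptor of the ectodysplasin receptor, from 4.8, 5.23 and 5.39 to 10, 10.1 and 10.8. Lyst, a regulator of lysosome and lytic granule size, was at 269, 248 and 245 CPM against 321, 345 and 331 (log2 0.39, SE 0.06, edgeR adjusted p = 0.00745). Cln3, a lysosomal membrane protein, was at 53.4, 52.5 and 48.7 CPM against 65.8, 69 and 67 (log2 0.38, SE 0.06), and Gm15800, a predicted gene, had a similar size of change (log2 0.32, SE 0.05). These last 3 changed little in proportion, but their libraries varied little as well.

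**Figure D2:**
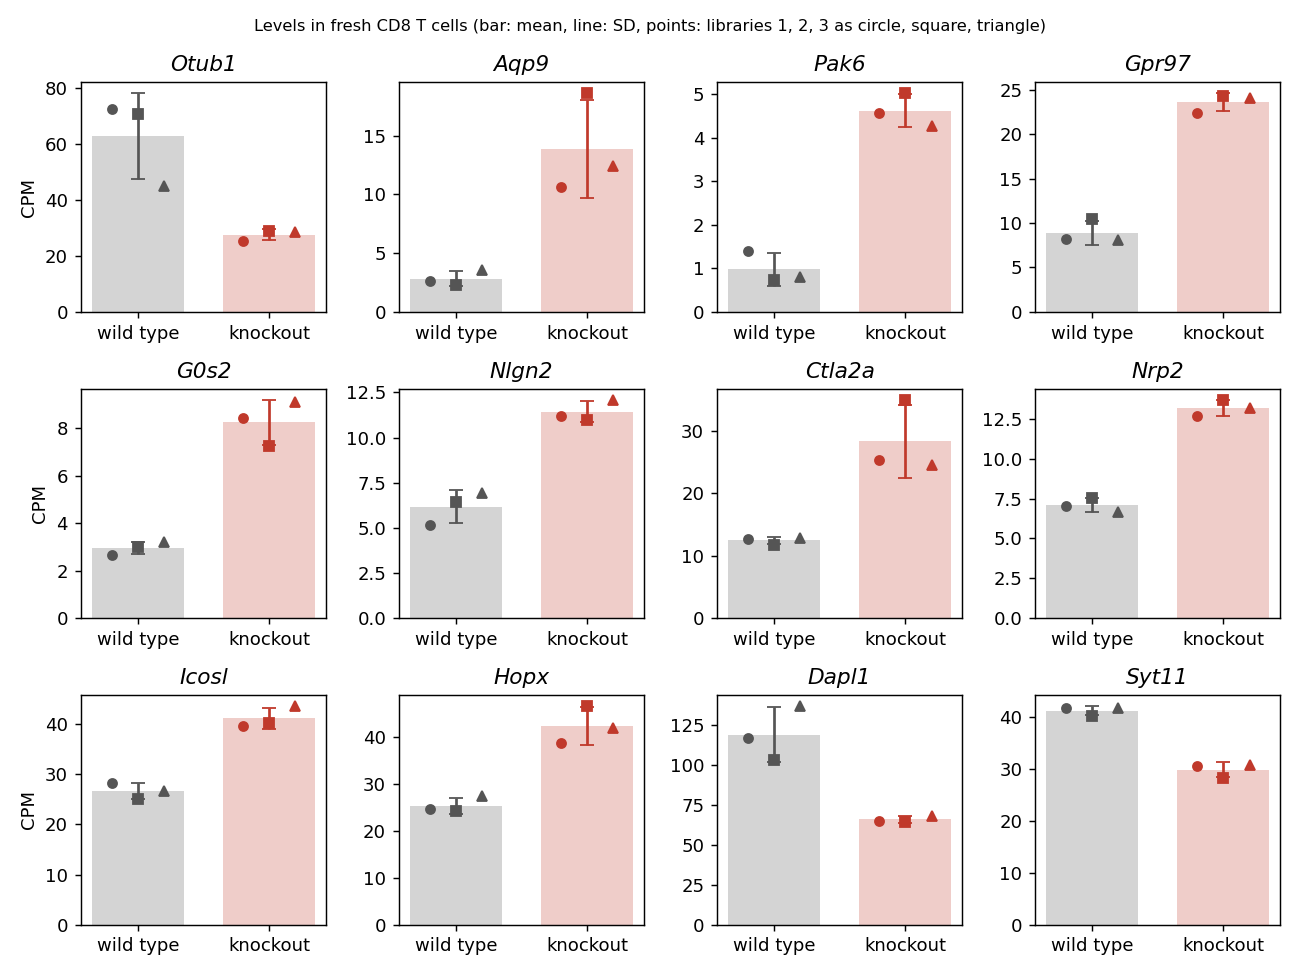
Expression in CPM (vertical axes, each starting at 0) of Otub1 and 11 other genes in the 3 fresh wild type and 3 fresh knockout libraries; bars are means, error bars SD (n = 3) and points single libraries. The knockout points lie apart from the wild type points in every panel, below them for Otub1, Dapl1 and Syt11 and above them for the other 9 genes.

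The stable falls, besides Otub1, were in genes with little in common. Dapl1, a gene highly expressed in naive CD8 T cells, was at 117, 103 and 137 CPM in wild type and 65.2, 64.5 and 68.3 in knockout (log2 −0.85, SE 0.13, edgeR adjusted p = 0.00679). Syt11, a synaptotagmin that restrains membrane uptake and secretion, was at 41.7, 40.2 and 41.7 CPM against 30.5, 28.2 and 30.8 (log2 −0.47, SE 0.08, edgeR adjusted p = 0.0099). Both had knockout values within a narrow band. Trnp1, a nuclear protein known from brain development, was at 3.4, 2.86 and 4.06 CPM against 0.883, 1.67 and 0.815 (log2 −1.59, SE 0.27). Olfr1033, an olfactory receptor gene, was at 55.2, 45.8 and 51.1 CPM against 33.2, 37 and 30.9 (log2 −0.59, SE 0.10), and the predicted gene Gm12505 at 28.9, 24.5 and 26.1 against 17.9, 18.4 and 17.5. Only 6 of 1122 olfactory receptor genes passed the filter on low counts, and Olfr1033 was the single one called.

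To see what kinds of products changed, 98 of the 153 called genes were sorted by what they encode. This sorting was made after the calls were seen, so it describes them and tests nothing. The largest class, surface receptors, ligands and adhesion molecules, held 27 genes that rose and 1 that fell, the orphan receptor gene Gpr83 (1.21, 1.07 and 1.66 CPM against 0.26, 0.498 and 0.479, with an edgeR adjusted p of 0.0527 without wild type library 3). Regulators of the cytoskeleton, small GTPases and vesicle traffic held 22 that rose and 2 that fell, and transcription regulators 15 and 3. Channels, pumps and transporters held 5 and 2, innate signalling adaptors 3 and 0, and lysosome and secretory granule genes 4 and 0. Ubiquitin and SUMO pathway genes held 2 that rose and 6 that fell, among them the deleted gene Otub1. These classes hold called genes only, so they give no share of all tested genes of a kind.

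The chemokine receptor Ccr2, which guides cells to inflamed tissue, rose as well. Its level was 4.25, 5.47 and 6.39 CPM in wild type and 10.5, 11.9 and 12.5 in knockout (log2 1.12, SE 0.18, edgeR adjusted p = 0.00907; 0.0516 without wild type library 2). Of 48 tested chemokine and lipid-mediator receptors, 4 rose (beside 0.98% of all genes) and none fell, among them Ccr2, Cxcr3 and Adora2a, and the median log2 fold change of the list was −0.053 beside 0 for all genes. Only 1 of them was called when wild type library 2 was left out. Of 34 tested cytokine receptors 5 rose and none fell, with a list median of 0.114 (log2) and beside 0.98% and 0.219% of all genes: both chains of the IL-18 receptor, Il18r1 and Il18rap, the shared IL-2 and IL-15 receptor chain Il2rb, the TGF-beta co-receptor Tgfbr3 and the type I interferon receptor chain Ifnar2. Il18r1 was at 80.5, 60.7 and 79.7 CPM against 110, 141 and 116 (log2 0.73, SE 0.15), and Il18rap at 21.9, 16 and 21.6 against 39.1, 40.8 and 30.3 (log2 0.89, SE 0.18). Wild type library 2 was the lowest of all for both chains, and without it none of the cytokine receptors was called. The count was 2 without wild type library 3, knockout library 1 or knockout library 2, and 3 without wild type library 1 or knockout library 3.

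Other surface proteins that rose include the poliovirus receptor gene Pvr, a ligand of the lymphocyte receptors DNAM-1 and TIGIT, at 16.3, 16.1 and 15.7 CPM in wild type and 21.6, 20.6 and 21.2 in knockout (log2 0.40, SE 0.09, edgeR adjusted p = 0.0382). Itga5, the fibronectin receptor chain, was at 9.66, 10.6 and 10.7 CPM against 13, 14.4 and 15.1 (log2 0.46, SE 0.10). It was the only 1 of 41 tested integrin chains and adaptors that was called. The call of Pvr was lost in every fit that left out a fresh library (adjusted p up to 0.126), and that of Itga5 in 5 of 6, with wild type library 2 among them. The neonatal Fc receptor gene Fcgrt was at 34.1, 32.2 and 45.1 CPM against 53.9, 67.6 and 61.1, and the receptor phosphatase gene Ptprs at 51.6, 53.1 and 51.3 against 68.7, 69.2 and 71.9. The Fcgrt call was lost without wild type library 2 (adjusted p = 0.0752), and the Ptprs call without wild type libraries 2 and 3 and knockout libraries 1 and 3. The 3 secreted factors that rose were the growth factors Pdgfb (2.37, 3.2 and 3.73 CPM against 5.97, 5.93 and 6.57) and Gdf11 (log2 0.68, SE 0.14), and the chemokine Ccl4 (log2 0.75, SE 0.15); without wild type library 2 none of these 3 was called, and other omissions also ended their calls.

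Of the genes sorted after the calls were seen, 4 encode proteins of adenosine or cyclic nucleotide handling, 3 that rose and 1 that fell. Adora2a, the adenosine receptor that raises cyclic AMP in T cells, was at 22.9, 20.3 and 20 CPM in wild type and 33.8, 33.3 and 33 in knockout (log2 0.66, SE 0.11, edgeR adjusted p = 0.0104). Adenosine deaminase, encoded by Ada, which destroys its ligand, was at 7.35, 8.67 and 9.19 CPM against 12.5, 12.6 and 11 (log2 0.52, SE 0.12, adjusted p = 0.048). The adenylate cyclase Adcy6 was at 124, 122 and 111 CPM against 150, 156 and 154 (log2 0.37, SE 0.08, adjusted p = 0.0298). For all 3 genes every knockout library was above every wild type one. Pde1b, a phosphodiesterase that breaks down cyclic nucleotides, fell from 42, 44.9 and 42.5 CPM to 35.1, 33.8 and 35.6 (log2 −0.31, SE 0.07, adjusted p = 0.0433). Without wild type library 2 the adjusted p of Adora2a was 0.0674. Ada and Pde1b lost their calls in each of the 6 fits that left out a fresh library, with values up to 0.149 and 0.203, and Adcy6 in 5 of them, with values up to 0.142.

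Among transcription factors of T cell differentiation, 6 of 61 tested genes rose (beside 0.98% of all genes) and none fell: Tbx21, Eomes, Hopx, Runx2, Runx3 and Smad3. Leaving out wild type library 2 left 2 calls. Runx2 was at 25.9, 22.7 and 28.9 CPM in wild type and 37, 50.8 and 42.6 in knockout (log2 0.76, SE 0.12, edgeR adjusted p = 0.00745; 0.0516 without wild type library 2). Runx3, the factor that sets CD8 identity, was at 217, 224 and 197 CPM against 245, 267 and 253 (log2 0.26, SE 0.05, adjusted p = 0.0296). Smad3, a transducer of TGF-beta signals, had a log2 change of 0.36 (SE 0.08). The Runx3 and Smad3 calls were lost in 4 and 5 of the 6 fits without a fresh library (adjusted p up to 0.137 and 0.15). The median log2 fold change of the whole list was 0.001, beside 0 for all genes. A further 3 regulators of transcription fell: Hexim1, an inhibitor of the elongation kinase P-TEFb (220, 228 and 279 CPM against 142, 202 and 136), Tob2, an antiproliferative adaptor of mRNA deadenylation (180, 177 and 199 against 127, 167 and 127), and Zzz3 (log2 −0.21, SE 0.05). For Hexim1 and Tob2, knockout library 2 was nearest to wild type. Their calls held without that library and were lost without wild type library 2 or 3 or knockout library 1 or 3 (adjusted p up to 0.138 and 0.157), that of Tob2 also without wild type library 1, and Zzz3 lost its call in 5 of 6 fits, that without wild type library 2 included.

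Of 67 tested actin regulators, small GTPases and PAK kinases, 4 rose and none fell, beside 0.98% and 0.219% of all genes: Pak6, Pdlim4, Rhoq and Arhgap26. The list median was 0.02 (log2). The count was 1 without wild type library 2, and 2 without wild type library 3 or knockout library 2. Pdlim4, an actin-bound LIM protein, was at 4.13, 4.46 and 7.26 CPM against 16.4, 16.7 and 11.4, and Sept8, a septin, at 5.77, 5.47 and 6.46 against 11.4, 14.1 and 8.92; both lost the call without wild type library 2 (adjusted p = 0.0575 and 0.0635). Plek, the pleckstrin gene, was at 40.7, 40.3 and 47.1 CPM against 62.4, 58.3 and 53.9 (log2 0.45, SE 0.07; adjusted p = 0.0516 without wild type library 2). Of 304 tested transporters and channels, 4 rose (Aqp9, Kcna2, Kcnh3 and Slc5a3) and 2 fell (Clcn4-2 and Kcnq5). The median log2 fold change of the list was −0.002, and the shares called are near those of all genes (0.98% higher and 0.219% lower). Kcna2, a voltage-gated potassium channel, was at 96, 80.5 and 100 CPM against 137, 122 and 125. Its call was lost in 5 of the 6 fits without a fresh library (adjusted p up to 0.192). Without wild type library 2 or knockout library 3, 1 of the transporters was called higher, and 2 without wild type library 3 or knockout library 2.

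In the ubiquitin system the falls were modest. Josd1, a Josephin deubiquitinase, was at 42.3, 44.9 and 48.1 CPM in wild type and 33.3, 38.4 and 32.9 in knockout (log2 −0.37, SE 0.07, edgeR adjusted p = 0.0215). Klhdc2, the substrate receptor of a cullin ligase that reads carboxy-terminal degrons, was at 49.7, 52.2 and 46.7 CPM against 35.8, 40.9 and 35.9 (log2 −0.40, SE 0.07, adjusted p = 0.0114). Sae1, a subunit of the SUMO-activating enzyme, was at 95.9, 101 and 89.2 CPM against 79.7, 82.8 and 78.5 (log2 −0.25, SE 0.05, adjusted p = 0.0354). The ligase gene Mkrn1 (log2 −0.26, SE 0.05) and Arrdc3, an arrestin-domain adaptor for ubiquitin ligases (log2 −0.56, SE 0.10), fell as well. Cul7, a cullin scaffold (log2 0.39, SE 0.08), and Ubash3a, which binds ubiquitin and restrains T cell receptor signals (log2 0.28, SE 0.06), rose. All 7 lost the call in 3 or more of the 6 fits that left out a fresh library, always including the one without wild type library 2, with adjusted p up to 0.186. None of 21 tested OTUB1 partners and OTU deubiquitinases passed the test (median log2 fold change −0.056; 0 higher and 3 lower at an unadjusted p under 0.05), and none of 45 USP deubiquitinases did (median 0.005; 7 higher and 3 lower). The partner Ube2n, which encodes UBC13, had a log2 fold change of 0.03. Of 30 tested E3 ligases of T cells none was called, and the list median was −0.02 (log2). At an edgeR unadjusted p under 0.05, 1 of these ligases was higher and 3 were lower.

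Signalling lists held few called genes. Of 40 tested genes of PI3K, AKT and mTOR signalling none was called by edgeR, with 2 higher and 7 lower at an unadjusted p under 0.05, where 7.56% and 6.57% of all genes were, and log2 fold changes from −0.2 to 0.21. Akt1 was at 127, 159 and 144 CPM against 128, 127 and 130, and the groups overlapped. Of 44 genes of the T cell receptor complex and proximal signalling only Ubash3a was called. In that list 8 were higher and 0 lower at an unadjusted p under 0.05, the list median was 0.028 (log2), and its sum was 19109 to 19267 CPM in wild type and 19538 to 19801 in knockout. Of 28 NF-kappaB subunits, inhibitors and targets 2 were called higher, Nfkb2 and Ccl4, and none lower, beside 0.98% and 0.219% of all genes. At an edgeR unadjusted p under 0.05, 5 of them were higher and 0 lower, and the list median was 0.019 (log2). Nfkb2, the subunit of the non-canonical pathway, was at 87.6, 85.6 and 85 CPM against 104, 110 and 116 (log2 0.36, SE 0.06; adjusted p = 0.0609 without wild type library 2), while its partner Relb stood at 52.2, 50.1 and 53 against 51.4, 51.6 and 54.4. No member was called among 30 glycolysis, 87 respiratory chain, 49 lipid metabolism or 28 mitosis genes. At an unadjusted p under 0.05, edgeR put 2, 0, 1 and 0 of them higher and 1, 6, 4 and 0 lower.

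The genes for cytosolic ribosomal proteins had mostly lower estimates, with no single member past the adjusted test. Of 79 tested members 4 had an estimate above 0. The median log2 fold change was −0.168, and 44 members were lower at an unadjusted p under 0.05 and none higher. In 55 of the 79 (69.6%) the fresh groups did not overlap downward, beside 9.42% of all genes. The summed level of the list was 102562 to 111794 CPM in wild type and 90909 to 99464 in knockout. DESeq2 called 18 members lower and limma-voom 3. Without wild type library 3 and knockout library 2, the fresh libraries with Y-linked reads, the median was −0.097 and 5 members were lower at an unadjusted p under 0.05.

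The interferon response genes depended on single libraries. Of 47 tested, none was called, with a median log2 fold change of 0.302 and 45 estimates above 0. At an edgeR unadjusted p under 0.05, 27 members were higher and 0 lower, beside 7.56% and 6.57% of all genes. In 3 of the 47 the fresh groups did not overlap upward, beside 10.6% of all genes. The summed level of the list was 6535 to 9252 CPM in wild type, where library 1 was the highest of all 6, and 8698 to 9153 in knockout. When wild type library 1 was left out, the median was 0.528 and 33 members were called higher. The members higher at an unadjusted p under 0.05 numbered 5 without wild type library 2, 7 without wild type library 3 and 2 once the Y-linked libraries were removed, with a median of 0.199.

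**Figure D3:**
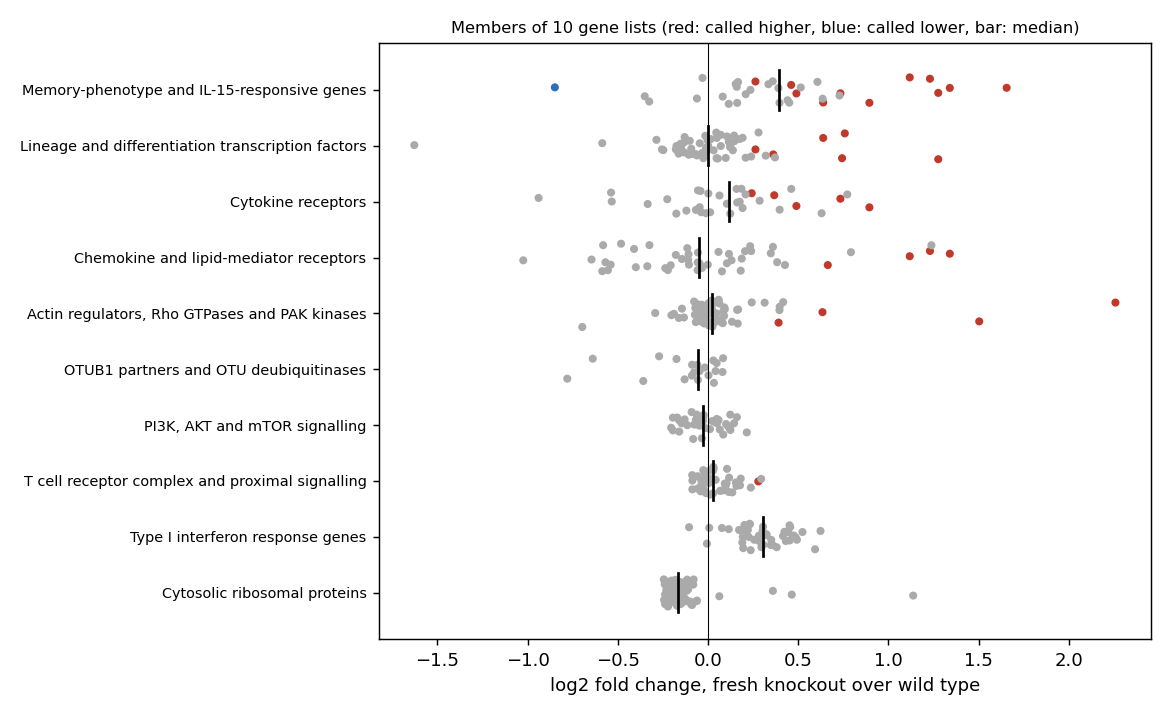
Log2 fold change of fresh knockout over fresh wild type (horizontal axis) for the tested members of 10 gene lists (1 point per gene, called genes in colour, upright bar at the list median). Medians lie close to 0 for most lists, above it for memory-phenotype and interferon response genes (0.393 and 0.302) and below it for cytosolic ribosomal proteins (−0.168).

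Effector genes had a small median change, at 0.207 (log2). Of 31 tested members 2 rose, Ccl4 and Lyst, and none fell, beside 0.98% and 0.219% of all genes. At an edgeR unadjusted p under 0.05, 11 were higher and 2 lower, beside 7.56% and 6.57% of all genes. Estimates ranged from −2.23 to 1.09, and the summed level was 2850 to 2954 CPM in wild type and 3183 to 3251 in knockout. The GIMAP GTPases, which support survival of resting lymphocytes, summed to 2692 to 2820 CPM against 2951 to 3257. Gimap7 was the called member, at 56.2, 54.6 and 58.8 CPM against 78.1, 81.9 and 86.5 (log2 0.54, SE 0.11, edgeR adjusted p = 0.0295; lost in 5 of 6 fits without a fresh library, among them that without wild type library 2, and its reads may be shared with its paralogs). Mir17hg, the host transcript of the miR-17-92 cluster, fell from 20.3, 23.9 and 21.6 CPM to 15.9, 17.9 and 14.7 (log2 −0.44, SE 0.09). Its call was lost without wild type libraries 2 or 3 or knockout libraries 1 or 3 (adjusted p up to 0.126). H2-Q10, a class I gene with near-identical neighbours whose reads it may share, was at 1.64, 0.823 and 1.86 CPM against 4.1, 4.98 and 4.79 (log2 1.72, SE 0.29; adjusted p = 0.0605 without wild type library 2).

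In a pair of marker lists the summed levels of the genotypes did not overlap. NK cell markers summed to 277 to 307 CPM in wild type and 346 to 391 in knockout. Most of that sum was Txk (121 to 141 CPM against 141 to 160) and Eomes (52.9 to 69.5 against 85.6 to 119). Eomes is also counted above among transcription factors of T cell differentiation. Among 12 tested members 2 rose, Eomes and Klra3, beside 0.98% of all genes. The Eomes call was lost without wild type library 2 (edgeR adjusted p = 0.111). Of the 12 tested, 9 had an estimate above 0 (median log2 fold change 0.233), and 4 were higher and 2 lower at an unadjusted p under 0.05. The defining NK genes Ncr1 and Klrb1c were the 2 lower ones: Ncr1 was at 0.547, 1.16 and 1.27 CPM against 0.519, 0.181 and 0.671, Klrb1c at 2.98, 3.49 and 3 against 1.92, 1.72 and 1.82. The defining genes Klra4 and Klra8 were at 0 in all 12 libraries and were not tested. The part of NK cells in the results was not tested. Platelet markers summed to 50.5 to 56 CPM against 68.3 to 75.5. Nearly all of this sum was Itgb3, an integrin chain that T cells also carry, at 45.9, 49.8 and 51 CPM against 64.4, 72.1 and 70.4 (log2 0.50, SE 0.12, edgeR adjusted p = 0.0717), with Gp1bb at 0. For the other 10 marker lists the summed ranges of both genotypes overlapped, and their 1 called member was Ccr2, among 18 tested monocyte and macrophage markers.

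Called genes sometimes lay side by side. Within 100 kb of each other lay 17 of the 153 called genes in 8 groups, and in all 8 groups the members rose. Most called genes rose in any case (125 of 153). How many genes of an equal set drawn from all tested genes lie this close was not counted, so the groups are a description only. Tbx21 (chromosome 11, 97098007 to 97115331) had Tbkbp1 next to it (97136171 to 97151506), which encodes an adaptor of the kinase TBK1. Tbkbp1 was at 4.86, 3.49 and 4.66 CPM in wild type and 6.54, 9.69 and 7.53 in knockout (log2 0.89, SE 0.16, edgeR adjusted p = 0.0143; 0.111 without wild type library 2). The genes on either side of this pair, Osbpl7 and Kpnb1, had log2 fold changes of 0.21 and −0.04 and were not called. Of 48 tested adhesion and other orphan receptors 2 rose, and only Gpr97 was called without wild type library 2 or 3 or knockout library 2 or 3.

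A further 5 of the groups were Il18r1 with Il18rap on chromosome 1, Jup with Fkbp10 on chromosome 11, Tnfsf14 with Trip10 on chromosome 17, and Pvr with Igsf23 and Cln3 with Apobr on chromosome 7. Jup, or plakoglobin, was at 8.99, 11.8 and 11.5 CPM against 18.6, 15.3 and 18.2, and Igsf23 at 2.49, 2.95 and 2.2 against 4.93, 5.61 and 6.38. Tnfsf14, the cytokine LIGHT, was at 5.53, 5.13 and 4.73 CPM against 7.58, 7.97 and 8.2. The calls of these 3 genes were lost without wild type library 2 and in at least 3 further fits. The gene bodies of Cln3 and Apobr overlap, as do those of Trip10 and Gpr108 and of Fkbp10 and Nt5c3l. The strand setting of the counting is not given in the sources used here, so reads of such pairs may be shared. Gpr108 and Nt5c3l had log2 fold changes of 0.01 each.

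**Figure D4:**
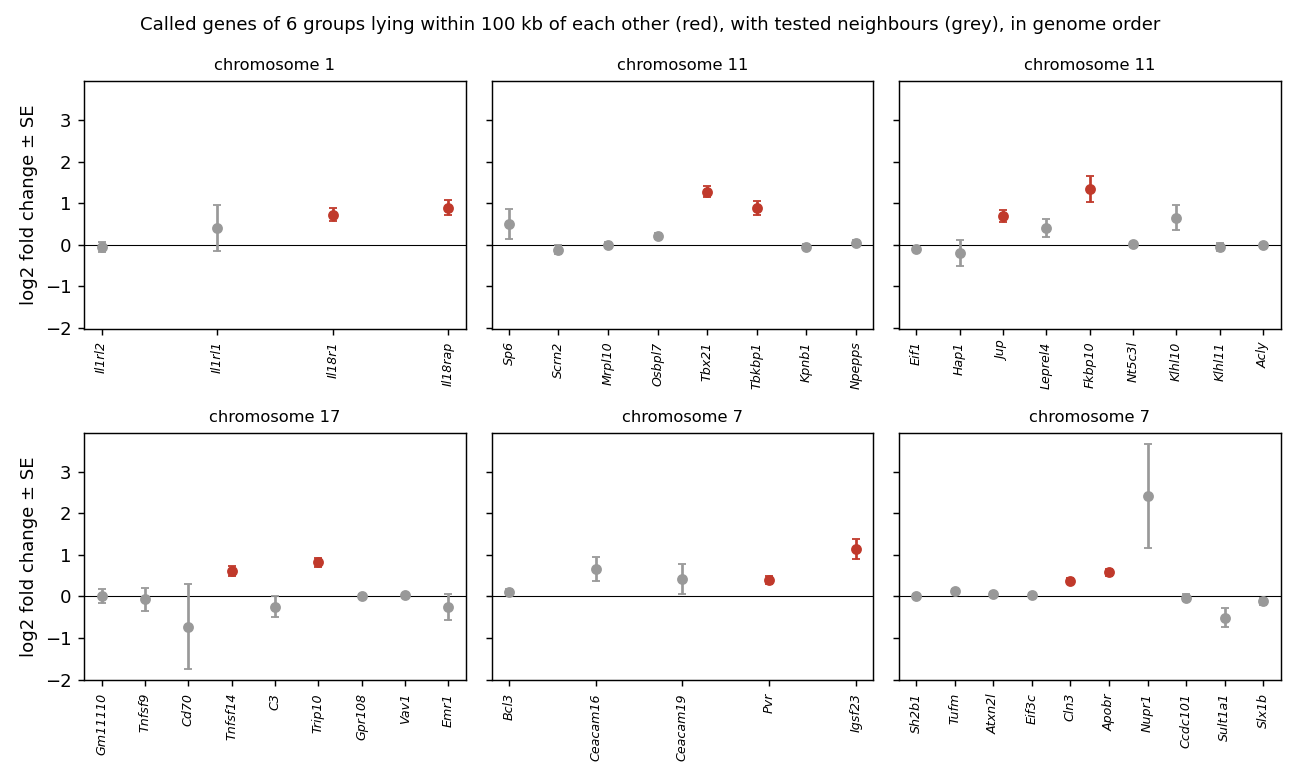
Log2 fold change of fresh knockout over fresh wild type with its standard error (vertical axes) for the genes tested around 6 of the 8 groups of neighbouring called genes, in chromosome order (horizontal axes), called genes in colour. Called genes rose in all 6 groups drawn, while no flanking gene was called, with estimates that range from near 0 (Kpnb1, −0.04) to 0.66 (Ceacam16), −0.73 (Cd70) and 2.42 (Nupr1, with a wide error).

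Genes near Otub1 itself held few calls. Of 217 tested genes whose start lay within 5 Mb of it, 1 rose and none fell, beside 0.98% and 0.219% of all genes. The 1 that rose was Ehbp1l1, with 60.3, 64 and 66.3 CPM in wild type and 77.7, 75.9 and 77.4 in knockout (log2 0.28, SE 0.06, edgeR adjusted p = 0.0371). Without wild type libraries 2 or 3 or knockout library 3 the count was 0, and without wild type library 1 or knockout library 2 it was 2. At an edgeR unadjusted p under 0.05, 20 of the 217 were higher and 7 lower, beside 7.56% and 6.57% of all genes. The window had a median log2 change of 0.025. The adjacent gene on one side, Macrod1, had a log2 fold change of −0.03, and Cox8a and Naa40 on the other side −0.02 each.

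To see whether the promoters of the called genes share sequence, 6 short motifs were searched on both strands of the 250 bases before and 50 bases after each start site (RefSeq, GRCm38.p6). Of the 125 genes that rose 104 had at least 1 promoter in the table, 145 in all, and of all tested genes 10180 had 12885. The promoters shown belong to neighbours that rose together (Tbx21 and Tbkbp1), to a called NF-kappaB subunit with a pair of start sites (Nfkb2) and to 2 of the genes with the letters known for T-box factors (Nrp2 and Samd3). Capitals mark the motif, in either orientation, and each sequence is read along the strand of its gene.
Tbx21 chr11:97115502-97115581 (minus strand), ETS letters GGAAGT: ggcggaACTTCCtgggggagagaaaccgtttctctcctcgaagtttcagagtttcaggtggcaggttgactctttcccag
Tbkbp1 chr11:97150076-97150155 (minus strand), ETS letters GGAAGT: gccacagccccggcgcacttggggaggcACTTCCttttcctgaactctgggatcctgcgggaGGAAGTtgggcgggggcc
Nfkb2 chr19:46304657-46304736 (plus strand), NF-kappaB letters: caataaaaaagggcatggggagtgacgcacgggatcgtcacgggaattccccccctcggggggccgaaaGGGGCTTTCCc
Nfkb2 chr19:46305680-46305759 (plus strand), NF-kappaB letters: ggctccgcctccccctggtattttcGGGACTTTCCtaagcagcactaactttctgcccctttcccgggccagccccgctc
Nrp2 chr1:62703067-62703146 (plus strand), T-box letters TCACACC: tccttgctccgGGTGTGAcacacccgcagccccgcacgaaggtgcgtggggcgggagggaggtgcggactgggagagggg
Samd3 chr10:26229627-26229706 (plus strand), T-box letters TCACACC: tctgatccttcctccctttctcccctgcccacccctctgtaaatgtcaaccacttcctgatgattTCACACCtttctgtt

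A T-box match was present in 3.45% of the promoters of genes that rose and in 3.44% of all promoters, so the shares were nearly equal. The RUNX letters TGTGGTT were in 4.83% against 3.82%, and the ETS letters in 23.4% against 28.7%. The E-box letters CANNTG were in 69.7% against 64.5%, the IRF letters (GAAA, any 2 bases, GAAA) in 1.38% against 3.21% and the NF-kappaB letters (GGG, any 2 bases, TTTCC) in 2.76% (4 promoters) against 1.67%. Among 39 promoters of genes that fell, the shares in the same order were 2.56%, 5.13%, 15.4%, 66.7%, 5.13% and 0%. These matches describe letters within this window and are not evidence of binding.

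The stimulated libraries, which share no sample with the fresh ones, showed which of these differences were also present after activation. Among all genes 5.08% were called higher and 4.22% lower in stimulated knockout cells. Of the 125 genes that rose in fresh cells, 47 (37.6%) were also called higher, 3 were called lower and 102 (81.6%) kept the sign. Their median log2 fold change was 0.27 after stimulation beside 0.60 in fresh cells. The genes were chosen by their fresh values, which favours a larger fresh median, so the gap between the medians is not a test. Of the 28 that fell, 5 (17.9%) were also called lower, namely Otub1, Dapl1, Syt11, Clcn4-2 and Zdhhc20, and 21 (75%) kept the sign. The shared calls were 9 higher and 3 lower without fresh wild type library 2. They were 24 and 3 without fresh wild type library 3, and 25 and 4 without fresh knockout library 3.

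Gpr97 is an example of a difference present in both states: stimulated wild type cells held 1.44 CPM (mean of 3) and stimulated knockout cells 4.4 (log2 1.61, edgeR adjusted p = 9.92e-05). Hopx went from 12.3 to 19.2 CPM (means), Nlgn2 from 37.8 to 66.6, Trip10 from 12.6 to 19.9 and Runx2 from 29.8 to 55.6 between stimulated wild type and knockout, all called. Sept8 was at 6.75 CPM in stimulated wild type and 15.7 in knockout (log2 1.22, adjusted p = 0.000218). Among surface molecules 13 of the 27 that rose in fresh cells were also called higher, and among lysosome and granule genes 0 of 4.

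For 27 of the 153 genes the genotype effect itself differed between the states at an edgeR interaction adjusted p under 0.05, beside 2.26% of all genes. The interaction includes the fresh contrast by which the 153 genes were chosen, so a larger share than among all genes is part of the choice. For Pak6 the log2 effect went from 2.26 in fresh cells to 0.36 after stimulation, where wild type held 13.3 CPM and knockout 17.1. G0s2 was at 0.664 CPM in stimulated wild type and 0.486 in knockout, and the interaction was −1.97 (adjusted p = 0.016). The Tbx21 effect went from 1.28 to 0.17, with 89.7 CPM in stimulated wild type and 101 in knockout. Tnfsf14 turned over, with 80.4 CPM in stimulated wild type and 65.4 in knockout (log2 −0.30, adjusted p = 0.0366). So did Coro2a, a coronin, which fell in fresh cells (25.8, 31 and 26 CPM against 17.7, 22 and 19.1) and rose in stimulated ones, from 68 to 91.5 CPM (log2 0.43, adjusted p = 0.0122). The fresh Coro2a call was lost without wild type library 2 or 3 or knockout library 1 or 3 (edgeR adjusted p up to 0.206). It was also lost in limma-voom (adjusted p = 0.0612). The count of 27 was 9 without fresh wild type library 2, 15 without knockout library 1 or 3, 16 without wild type library 3, 47 without knockout library 2 and 78 without wild type library 1.

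**Figure D5:**
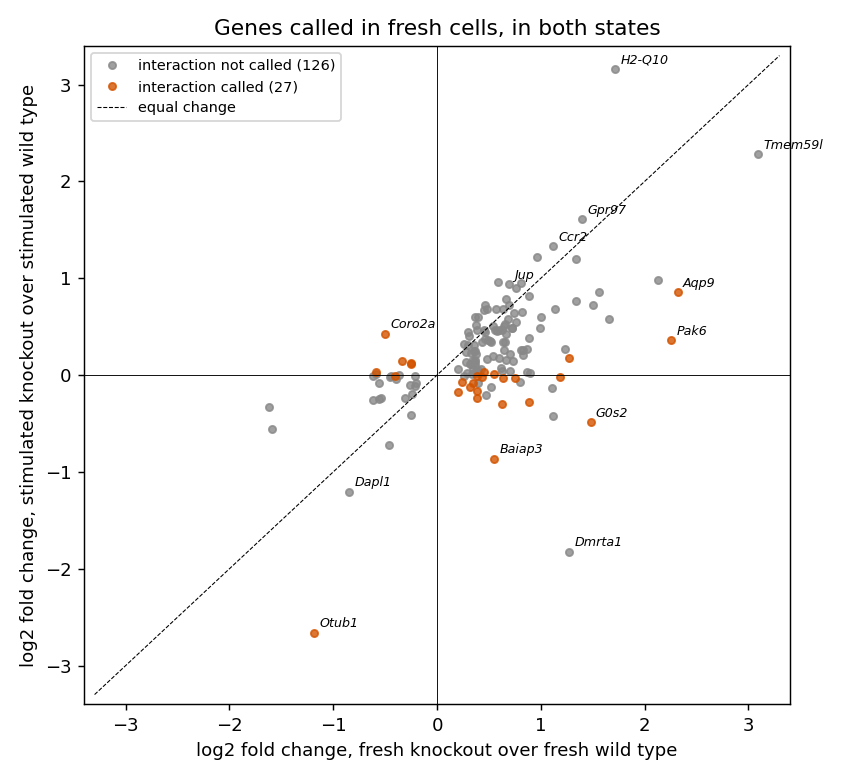
Log2 fold change of knockout over wild type in fresh cells (horizontal axis) and in stimulated cells (vertical axis) for the 153 genes called in fresh cells, with genes of a called interaction marked. Otub1 lies lower in stimulated cells (−2.66) than in fresh cells (−1.19), and Pak6, G0s2 and Tbx21 lie far below the line of equal effects.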

How the data were processed

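For every sample the authors deposited raw counts of reads per gene, unnormalized. The tools in the submitters' processing notes are HTSeq, TopHat, TopHat2 and DESeq2, with mm10 as the build. Their versions, the annotation and the strand setting were not given in the sources used here. The 5 HTSeq summary lines (5.22% to 6.43% of a file's total) were dropped before library sizes were taken. Of 23420 genes listed, filterByExpr kept 12759. A quasi-likelihood model of edgeR 4.0.16 (R 4.3.3) with TMM factors (0.988 to 1.01) and group means as coefficients took in all 12 libraries, left 8 residual degrees of freedom and was tested on simulated data. Tests were two-sided, and calls needed a p under 0.05 after Benjamini-Hochberg adjustment over all tested genes, which is the adjusted p printed here. CPM are TMM-scaled counts per 1000000, printed to 3 digits per library. Means are over 3 libraries.

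Groups came from the source labels, and replicates were numbered in accession order only to name them. The genes and lists were chosen with earlier results of these data known. Genes are named by a rule: Otub1, the 15 highest and 15 lowest fold changes and the 15 smallest p-values among calls whose groups were separate and whose mean log2 CPM reached 2 (predicted genes and receptor segments left out), and called members of the 44 function and 12 cell type lists. Other called genes were sorted by product after the calls were seen, and members that were not called are named beside their list. Some called genes are not reported here. Promoters came from RefSeq (GRCm38.p6), matched by symbol. Alternatives were RLE factors, no filter, the 6 fresh libraries alone, each library left out, the libraries with Y-linked reads left out or given a term, an adjusted p under 0.01, limma-voom (limma 3.58.1) and DESeq2 1.42.0. Depth limits what the low genes can show, and the number of libraries limits the precision.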

Additional observations from a re-analysis of the deposited data

Results flagged for a closer look

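In 27 of the 153 genes called in fresh cells, the genotype effect differed between stimulated and fresh cells by a test of the difference itself (edgeR interaction, Benjamini-Hochberg adjusted over all 12759 tested genes). The values below are stimulated minus fresh log2 fold changes of knockout over wild type. In 21 genes the effect was lower after stimulation. It was lower by the largest amounts for G0s2 (−1.97, adjusted p = 0.016), Pak6 (−1.90, 0.00329), Otub1 (−1.47, 0.00329), Aqp9 (−1.46, 0.0173), Baiap3 (−1.42, 0.0132) and Ctla2a (−1.21, 0.00868). Nrp2 (−1.17), Tbx21 (−1.10), Tnfsf14 (−0.92), Ccl4 (−0.78), Eomes (−0.67), Rgs3 (−0.62), Lyst (−0.56) and Car12 (−0.53) followed. Smaller differences were seen for Pik3ap1 (−0.45), Gm15800 (−0.44), Armc7 (−0.43), Plek (−0.42), Cln3 (−0.40), Gnptab (−0.37) and Ifnar2 (−0.32). In 6 genes that fell in fresh cells the effect was higher after stimulation: Coro2a (0.93, adjusted p = 0.0064), Olfr1033 (0.62), Aven (0.47), Klhdc2 (0.40), Sae1 (0.38) and Nap1l1 (0.37). The genes were those already called in fresh cells, where a large fresh effect is part of the choice. Groups of 3 libraries were not searched for outlying samples.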

How the results depend on the processing

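Otub1 fell in every fit, and no called gene changed sign in any: over 152 other called genes and 20 alternatives, 2202 of 3040 values stayed past the threshold and 838 did not. RLE factors left all counts within 1.5 times. The numbers of calls did depend on the settings, and the cause was not tested beyond what follows from fewer genes, fewer libraries or a stricter threshold.

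Without a filter on low counts 202 genes rose and 43 fell, 60 and 12 of them list members, with 3 near Otub1, 8 transporters and 8 cytokine receptors higher; 71 higher and 8 lower calls were shared with stimulated cells, and 56 had a called interaction. The 6 fresh libraries alone gave 2 genes near Otub1, 9 transporters and 8 cytokine receptors. With the Y-linked libraries removed, 53 genes rose, with 21 list members higher and 11 lower, 0 genes near Otub1, 6 memory-phenotype genes, 1 adhesion receptor, 2 actin regulators, 1 cytokine receptor and 3 lineage factors. In that fit 0% of promoters held the IRF letters, and 19 higher and 3 lower calls were shared with stimulated cells. A term for Y-linked reads gave 57 genes that fell, 12 list members lower, 2 genes near Otub1, 7 transporters, 8 shared lower calls and 42 interactions. At an adjusted p under 0.01, 33 genes rose and 4 fell, 15 and 2 of them list members, with 0 near Otub1, 5 memory-phenotype genes, 1 adhesion receptor, 2 actin regulators, 1 transporter, 0 cytokine receptors and 3 lineage factors. Shared calls were then 11 higher and 3 lower, with 7 interactions, and the promoters held T-box letters in 8.11%, E-box in 83.8%, IRF in 0% and NF-kappaB in 0%. Limma-voom gave 49 genes lower, 16 list members lower and 4 near Otub1. DESeq2 gave 223 genes higher and 103 lower, 67 and 35 of them list members, with 4 near Otub1, 8 transporters, 15 shared lower calls and 81 interactions.

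Leaving out 1 library at a time, over all 12, gave 21 to 170 genes that rose and 8 to 76 that fell, 9 to 76 and 4 to 16 of them list members, and 0 to 2 near Otub1. The ranges were 2 to 12 for memory-phenotype genes, 1 to 4 for chemokine and lipid-mediator receptors, 1 to 2 for adhesion receptors, 1 to 4 for actin regulators, 1 to 7 for transporters, 0 to 8 for cytokine receptors and 2 to 6 for lineage factors. Promoter shares ranged from 2.68% to 4.88% (T-box), 0% to 7.45% (RUNX), 17.4% to 29.8% (ETS), 65.3% to 87% (E-box), 0% to 14.9% (IRF) and 0% to 7.32% (NF-kappaB). Shared calls ranged from 9 to 48 higher and 3 to 10 lower, and interactions from 9 to 78. No paired analysis was possible because the labels number no replicates within a group and name nothing that ties a knockout sample to a wild type one. Genes at a few CPM rest on few reads, so small changes in them were not detectable at this depth.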
